A study of Oryza sativa with 6 samples.

Results

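Cytochrome P450 and diterpenoid synthesis genes were followed in shoot apices of the rice mutant dsl1 and of wild type (WT). The set was built from gene names and not from measured values. It takes every gene whose symbol or synonym in the rice gene reference is a P450 name (CYP), a copalyl diphosphate synthase name (CPS), a kaurene synthase or kaurene synthase-like name (KS, KSL) or a terpene synthase name (TPS). CYP707A6, trehalose phosphate synthases and P450 families of hormone synthesis and turnover were left out, namely CYP90, CYP85, CYP714, CYP724, CYP734, CYP735 and CYP711. Of 34 genes named in this way, 20 were paired with a transcript cluster of their own, among 15140 genes so paired in all. Each of the 20 had 1 cluster, a group of probes read as 1 transcript. They comprise 3 CPS genes, 4 KSL genes and 13 P450 genes. No TPS name matched.

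The dsl1 samples (3 arrays) came from a dwarf mutant with slender leaves whose lesion lies in a gene for a histone deacetylase, an enzyme that removes acetyl groups from histone tails. The WT samples (3 arrays) were apices of unmutated plants. Both genotypes were grown in soil without a stated treatment and were dissected once the fifth leaf had begun to show its tip, so each sample held the meristem together with the youngest primordia. The mutant allele, the locus of the mutated gene and the WT strain are not named in the labels, so the level of that gene was not used to check the genotypes. Nothing in the labels says that replicates were separate batches of plants, so each p-value measures the spread between these arrays, which may be technical. In such bulk tissue, fewer cells of a type and less RNA per cell cannot be told apart.

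Plants make diterpenoids from geranylgeranyl diphosphate by a pair of cyclisations. A CPS enzyme forms copalyl diphosphate in the ent or the syn form, a KS or KSL enzyme turns it into a hydrocarbon, and P450 monooxygenases then oxidise the hydrocarbon step by step. In every plant this route leads to the gibberellins. In rice it has duplicated branches that lead to antimicrobial phytoalexins, the momilactones, phytocassanes and oryzalexins, whose genes are known for induction by pathogens, ultraviolet light and jasmonate, and several of which lie side by side in the genome. P450s as a whole serve many other routes, among them jasmonate synthesis, cuticle and pollen wall formation, and the timing of leaf initiation.

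No member passed the test. The comparison of dsl1 with WT by limma, with p-values adjusted over all 54922 clusters, called 14 clusters, 0.0255% of those tested, and 0 of the 20 members. Adjusted p over the members lay between 0.323 and 0.96. At an unadjusted p under 0.05 there were 2 members on the higher side, CPS4 and KSL7, and 1 on the lower side, CYP703A3. Over the 15140 genes, the shares at that threshold were 9.46% higher and 5.52% lower, or 15.0% in all, and the members' share was also 15.0%. The arrays of both genotypes separated without overlap in CPS4 and CYP703A3, 2 of the 20 members, against 24.4% of all genes. The members' count is thus at the background by the first measure and below it by the second. Their median log2 difference was 0.065, with 12 members above and 8 below 0, and the median over all genes was 0.019, with 53.0% above 0. Of the 20 differences, 16 were smaller than 0.5 on the log2 scale in either direction.

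**Figure D1:**
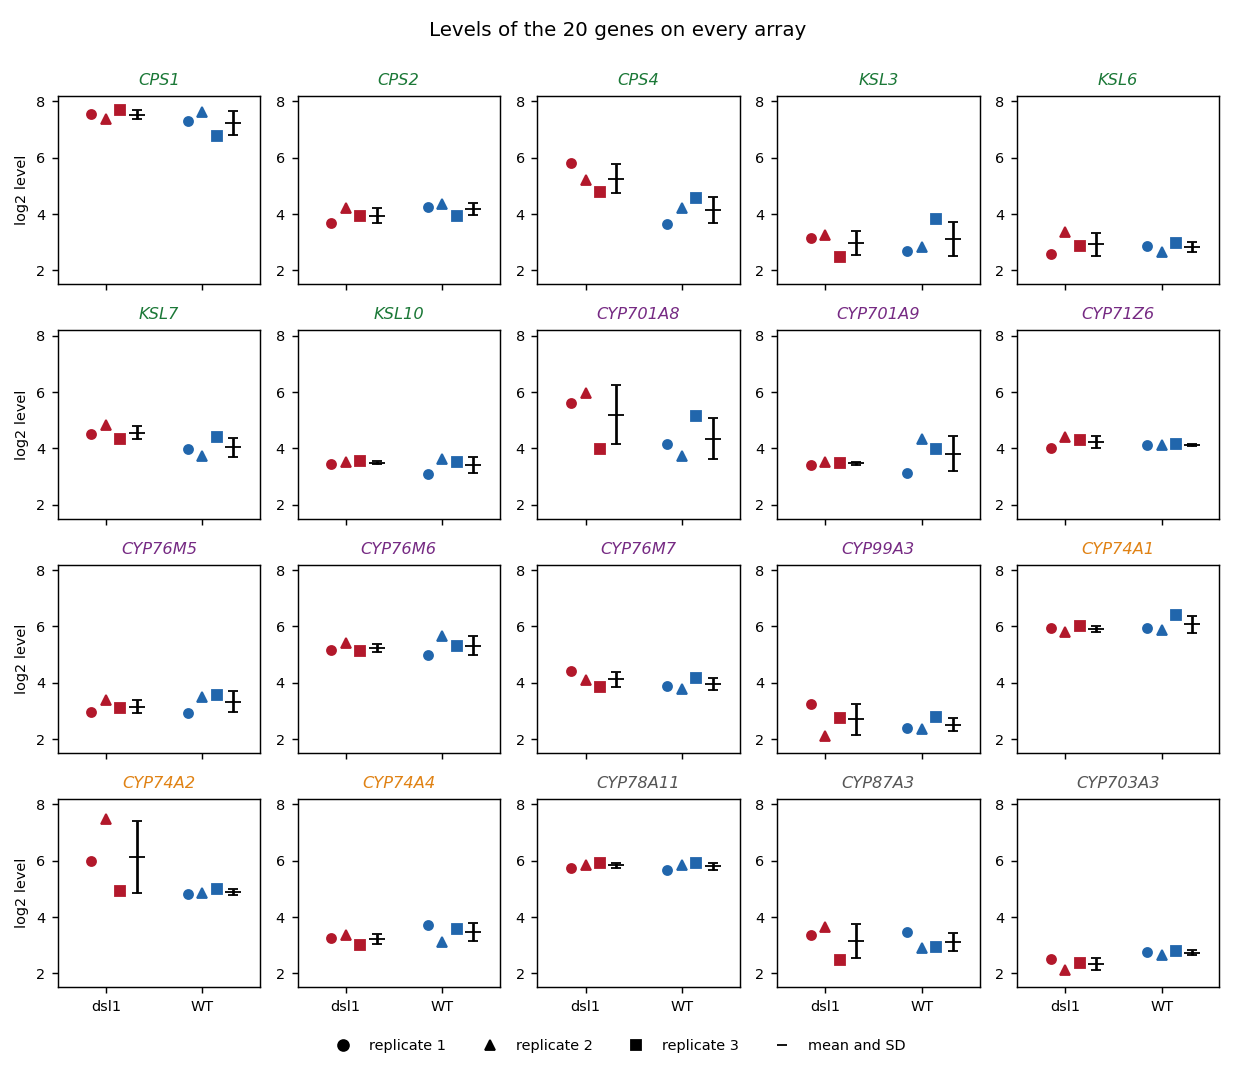
Log2 level of each of the 20 genes (vertical axes, 1 panel a gene) on the 3 dsl1 arrays (left, red) and the 3 WT arrays (right, blue); symbols mark the replicate number, black bars the mean and SD (n = 3), and title colours the roles: green for cyclases and synthases, purple for P450s of diterpenoid subfamilies, orange for allene oxide synthases, grey for other P450s. The groups are apart in CPS4 and CYP703A3 and overlap in the other 18 panels.

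Most members gave dim clusters. When all clusters were ranked by mean level and cut into 5 equal groups, 9 members fell in the dimmest group, 6 in the next and 3, 1 and 1 in the remaining groups towards the brightest. Cluster brightness depends on its probes as well as on the transcript, so these ranks do not order the genes by amount. No detection calls were used here. The dimmest group covers mean log2 levels up to 3.67, and differences of genes in it are of uncertain size. This applies to KSL3, KSL6, KSL10, CYP701A9, CYP76M5, CYP99A3, CYP74A4, CYP87A3 and CYP703A3.

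Among the CPS genes, which feed the separate diterpenoid branches, none passed the test. CPS4 makes syn-copalyl diphosphate, the precursor of the momilactones and of oryzalexin S. Its log2 levels were 5.81, 5.21 and 4.77 in dsl1 and 3.66, 4.21 and 4.58 in WT. All 3 dsl1 arrays were above all 3 WT arrays, though the lowest dsl1 value and the highest WT value were close. The means were 5.26 ± 0.52 in dsl1 and 4.15 ± 0.46 in WT (SD, n = 3 each). The log2 difference was 1.11, or 2.17-fold, with a standard error of 0.33 and a 95% interval of 0.34 to 1.89. Its limma adjusted p was 0.323 and its unadjusted p was 0.0112, the smallest of the 20 members. With 1 array left out the difference ran between 0.84 and 1.36.

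CPS2 makes ent-copalyl diphosphate for the phytocassanes and oryzalexins. Its levels were 3.67, 4.23 and 3.93 in dsl1 and 4.25, 4.36 and 3.93 in WT. The groups overlapped, and the difference of -0.23 had a 95% interval of -0.69 to 0.22. It was -0.098 without dsl1 replicate 1, and -0.38 and -0.36 without dsl1 replicate 2 and WT replicate 3. CPS1 makes the same ent intermediate for the gibberellins. It stood at 7.54, 7.36 and 7.70 in dsl1 and at 7.31, 7.61 and 6.76 in WT, where replicate 3 was the lowest of all 6 arrays. The difference of 0.30 (95% interval -0.24 to 0.85) shrank to 0.072 without WT replicate 3.

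The KSL genes encode the second cyclase. KSL7 forms ent-cassadiene, the hydrocarbon of the phytocassanes. Its log2 levels were 4.53, 4.83 and 4.34 in dsl1 and 3.99, 3.73 and 4.41 in WT. WT replicate 3 lay above dsl1 replicate 3, so the groups overlapped. The means were 4.57 ± 0.25 in dsl1 and 4.04 ± 0.34 in WT (SD, n = 3 each), a difference of 0.52, or 1.44-fold. Its unadjusted limma p of 0.047 was just under the threshold (adjusted p = 0.421). That unadjusted p was 0.0127 without WT replicate 3 and 0.0399 without dsl1 replicate 3, and with each of the other 4 arrays left out in turn it lay between 0.0846 and 0.147.

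KSL10 forms ent-sandaracopimaradiene, from which the oryzalexins are made. Its levels were 3.44, 3.51 and 3.54 in dsl1 and 3.11, 3.63 and 3.53 in WT, and the WT values spread on both sides of the dsl1 values. KSL6 forms ent-isokaurene. It was at 2.57, 3.35 and 2.85 in dsl1 and at 2.87, 2.64 and 2.97 in WT. KSL3, whose product is not given here, was at 3.16, 3.26 and 2.47 in dsl1 and at 2.67, 2.85 and 3.81 in WT. The differences of these genes were 0.073 for KSL10, 0.094 for KSL6 and -0.15 for KSL3, and each changed sign when some single array was left out. The synonyms OsKS3, OsKS5 and OsKS6 are each shared by more than 1 of these genes in the reference, and the KSL names are used here for that reason.

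**Figure D2:**
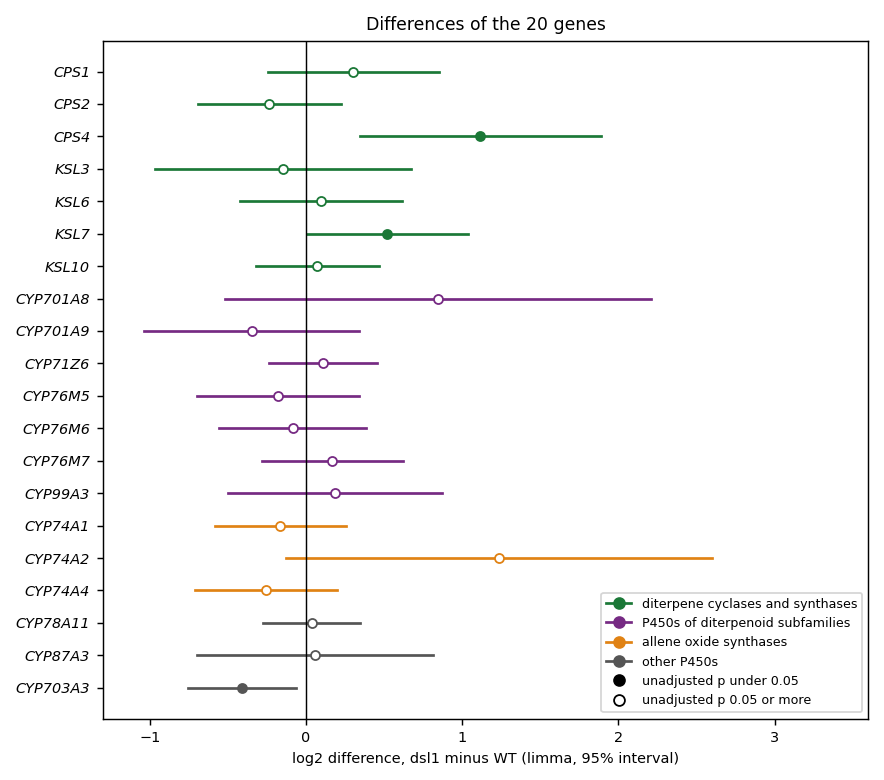
Log2 difference between dsl1 and WT (horizontal axis, dsl1 minus WT) of each of the 20 genes, as points with limma 95% intervals; filled points had an unadjusted p under 0.05, and colours give the roles. Of the 20 intervals 17 hold 0, and those of CYP74A2 and CYP701A8 are the widest.

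The P450s of the subfamilies that work in diterpenoid synthesis numbered 7, and 0 of them reached an unadjusted p under 0.05, beside 15.0% of all genes, a share that would be about 1 gene in 7. Their median difference was 0.11, with 4 above and 3 below 0, beside 0.019 over all genes. CYP701A8, a relative of the kaurene oxidase of gibberellin synthesis that hydroxylates phytoalexin hydrocarbons, varied most among them. Its log2 levels were 5.62, 5.97 and 3.99 in dsl1 and 4.15, 3.73 and 5.17 in WT. Of the dsl1 arrays, replicates 1 and 2 lay above every WT array, and replicate 3 lay below WT replicates 1 and 3. The difference of 0.85 had a 95% interval of -0.52 to 2.21 (limma adjusted p = 0.6). It was 1.45 without dsl1 replicate 3, with an adjusted p of 0.421 in that fit. Its neighbour CYP701A9 was at 3.42, 3.51 and 3.49 in dsl1 and at 3.14, 4.34 and 3.97 in WT. The dsl1 arrays agreed closely there, while WT spread on both sides of them, and the difference was -0.35 (95% interval -1.04 to 0.34). It was -0.68 without WT replicate 1, at an unadjusted p of 0.00657 and an adjusted p of 0.424, and -0.087 without WT replicate 2.

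The CYP76M enzymes hydroxylate several phytoalexin hydrocarbons. CYP76M6 was at 5.16, 5.40 and 5.12 in dsl1 and at 4.97, 5.66 and 5.30 in WT, a difference of -0.085. CYP76M5 was at 2.94, 3.39 and 3.11 in dsl1 and at 2.91, 3.50 and 3.58 in WT, a difference of -0.18. The name CYP76M7 is that of the cassadiene hydroxylase of phytocassane synthesis. The gene so named in the reference was at 4.41, 4.09 and 3.85 in dsl1 and at 3.89, 3.77 and 4.18 in WT, a difference of 0.17. The ranges overlapped in all 3. With 1 array left out, the difference ran from -0.39 to -0.057 for CYP76M5 and from 0.022 to 0.30 for CYP76M7. The reference puts the gene named CYP76M7 on chromosome 6, apart from the other CYP76M genes on chromosome 2. The identity of that cluster is therefore uncertain, and it may not be the cassadiene hydroxylase.

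CYP71Z6 hydroxylates ent-isokaurene. It had levels of 4.0, 4.40 and 4.31 in dsl1 and 4.10, 4.12 and 4.17 in WT. The difference of 0.11 had a 95% interval of -0.24 to 0.45, and was 0.028 without dsl1 replicate 2 and 0.23 without dsl1 replicate 1. CYP99A3 oxidises the syn-pimaradiene of momilactone synthesis. It was at 3.23, 2.12 and 2.75 in dsl1 and at 2.40, 2.36 and 2.78 in WT, and its dsl1 arrays reached both above and below the whole WT range. Its difference of 0.19 turned to -0.081 without dsl1 replicate 1.

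Several members lie in runs of related genes, where the order along the chromosome could be compared with the differences. On chromosome 2, the run from CYP76M5 to CYP76M6 held 10 protein-coding genes, 7 of them measured and 6 of them members. In this order, CYP76M5 differed by -0.18, the unnamed gene LOC4329723 by 0.030, KSL7 by 0.52, CYP71Z6 by 0.11, CPS2 by -0.23, KSL6 by 0.094 and CYP76M6 by -0.085. Of the 7 measured genes, 4 were above and 3 below 0. In none did the genotypes separate, beside 24.4% of all genes. LOC4329723 lies in the dimmest group, as CYP76M5 and KSL6 do, so their differences are of uncertain size.

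On chromosome 4, the momilactone run from CPS4 to CYP99A2 held 6 protein-coding genes, 4 of them measured. CPS4 differed by 1.11, CYP99A3 by 0.19 and the unnamed gene LOC4335092 by 0.061. MAS, a dehydrogenase of the last step to momilactone A and not a member, was at 2.92, 2.69 and 3.03 in dsl1 and at 3.14, 3.17 and 3.13 in WT. All 3 dsl1 values of MAS lay below all WT values, at a difference of -0.27 (95% interval -0.59 to 0.054). MAS and LOC4335092 belong to the dimmest group, as CYP99A3 does, with the same limit on their values. The genotypes thus separated in 2 of the 4 measured genes of the run, beside 24.4% of all genes. KSL4, the next enzyme after CPS4, and CYP99A2 had no cluster of their own and were not analysed here.

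**Figure D3:**
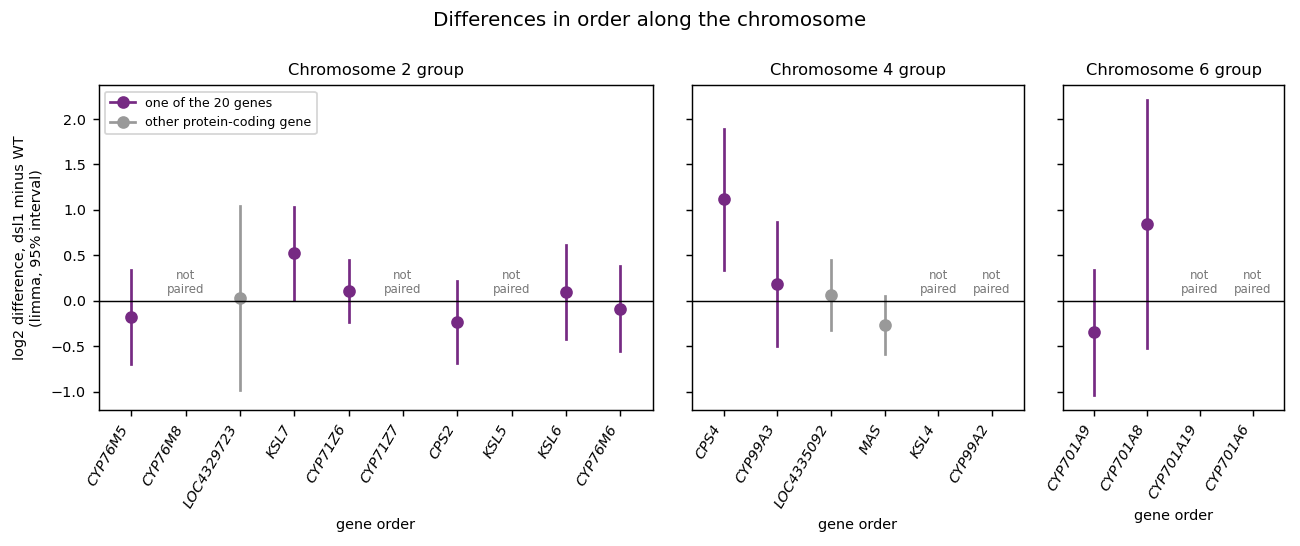
Log2 difference between dsl1 and WT (vertical axis, limma 95% intervals) of the protein-coding genes of 3 runs on chromosomes 2, 4 and 6, in gene order (horizontal axis); purple points are among the 20 genes, grey points are other genes, and genes without a cluster of their own are marked as not paired. CPS4 at 1.11 stands beside CYP99A3 at 0.19, and KSL7 at 0.52 has neighbours between -0.23 and 0.11. The cluster of CYP99A3 is in the dimmest group, so its difference is of uncertain size.

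Allene oxide synthases of the CYP74A subfamily, which carry out the committed step of jasmonate synthesis, were measured for 3 genes. CYP74A2 had the largest difference of the 20 members. Its log2 levels were 5.99, 7.47 and 4.91 in dsl1 and 4.82, 4.84 and 5.01 in WT. The WT arrays lay within a narrow band, dsl1 replicates 1 and 2 stood above it, and dsl1 replicate 3 lay inside it. The means were 6.13 ± 1.29 in dsl1 and 4.89 ± 0.10 in WT (SD, n = 3 each). The log2 difference of 1.24, or 2.36-fold, had a 95% interval of -0.13 to 2.60 (limma adjusted p = 0.463, unadjusted p = 0.0693). It was 0.56 without dsl1 replicate 2 and 1.84 without dsl1 replicate 3, so it depended on which dsl1 arrays were kept. No alternative brought its adjusted p below 0.298.

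CYP74A1 was at 5.93, 5.80 and 6.01 in dsl1 and at 5.96, 5.86 and 6.41 in WT. The groups overlapped, with WT replicate 3 above the other 5 arrays, and the difference was -0.16 (95% interval -0.58 to 0.26). CYP74A4 was at 3.25, 3.36 and 3.02 in dsl1 and at 3.71, 3.12 and 3.57 in WT, a difference of -0.25 (95% interval -0.71 to 0.20). Without WT replicate 2, CYP74A4 differed by -0.43 at an unadjusted p of 0.038.

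The remaining P450s serve single, separate routes. CYP703A3 hydroxylates fatty acids for the anther cuticle and pollen wall, tissues that a vegetative apex does not hold. It was at 2.51, 2.12 and 2.37 in dsl1 and at 2.77, 2.65 and 2.80 in WT, with every dsl1 value below every WT value. The means were 2.33 ± 0.20 in dsl1 and 2.74 ± 0.081 in WT (SD, n = 3 each), a difference of -0.41 (95% interval -0.75 to -0.062, limma adjusted p = 0.377, unadjusted p = 0.0269). Its cluster lies in the dimmest group. Its unadjusted p was 0.0908, 0.0549, 0.0657 and 0.0729 without dsl1 replicate 2, dsl1 replicate 3, WT replicate 1 and WT replicate 3.

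CYP78A11 is PLASTOCHRON1, which sets the pace of leaf initiation and is itself a gene of young leaves at the apex. It was at 5.75, 5.84 and 5.92 in dsl1 and at 5.66, 5.84 and 5.91 in WT. The 2 sets of values coincided, and the difference of 0.036 had the narrowest interval of the 20, -0.28 to 0.35. CYP87A3, described in rice as an auxin-induced gene of the coleoptile, was at 3.37, 3.64 and 2.48 in dsl1 and at 3.47, 2.90 and 2.95 in WT. Its difference of 0.057 changed sign on leaving out any 1 of 4 arrays.

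The width of the intervals shows what 6 arrays could resolve. The median half-width over the 20 members was 0.52 on the log2 scale, from 0.31 in CYP78A11 to 1.36 in CYP74A2. For 15 members the whole interval lay between -1 and 1, so a larger difference lies outside their unadjusted 95% intervals. The other 5, CPS4, KSL7, CYP701A8, CYP701A9 and CYP74A2, had intervals that reached 1 or -1. The SD was larger in dsl1 than in WT in 10 of the 20 members, or 50.0%, beside 40.2% of all genes.

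**Figure D4:**
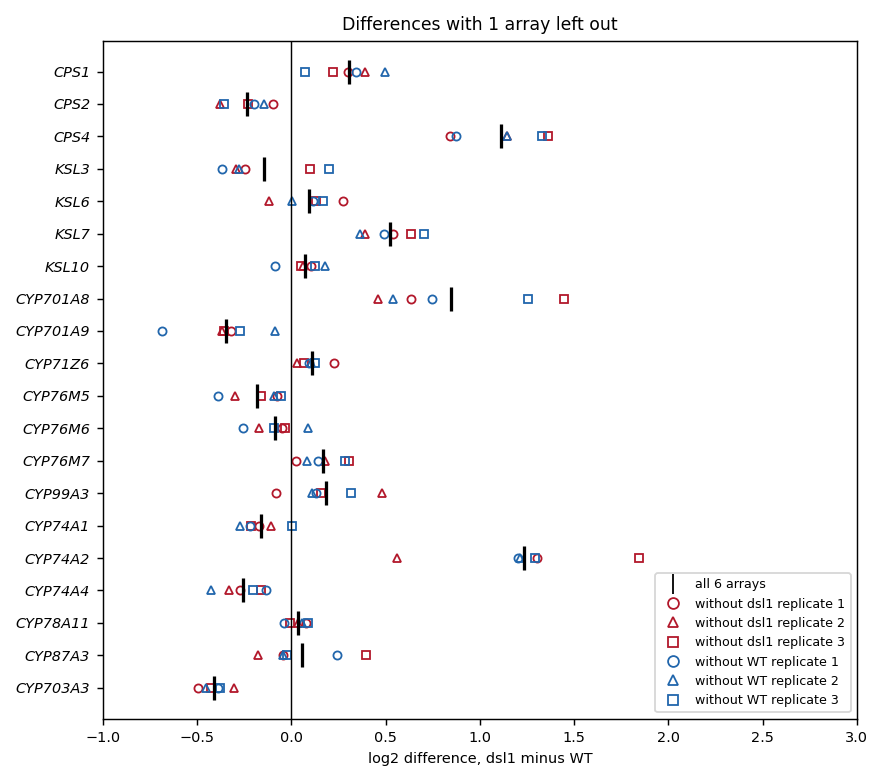
Log2 difference between dsl1 and WT (horizontal axis) of each of the 20 genes with all 6 arrays (black bars) and with 1 array left out (open symbols, red for a dsl1 array and blue for a WT array). CYP74A2 runs from 0.56 to 1.84 and CYP701A8 from 0.46 to 1.45, while 8 genes have symbols on both sides of 0.

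The highest values were spread unevenly over the arrays. Of the dsl1 arrays, replicate 2 held the highest value in 12 of the 20 members, against 29.5% of all genes. Of the WT arrays, replicate 3 held the highest value in 13 of the 20 members, against 29.2% of all genes. WT replicate 3 was the highest WT array for CPS4, KSL7, CYP701A8, CYP74A1 and CYP74A2 among others, and the lowest for CPS1 and CPS2. The median level over the members was 3.84, 4.16 and 3.89 on the dsl1 arrays and 3.80, 3.75 and 4.07 on the WT arrays. The members' median difference changed sign without dsl1 replicate 1 (-0.012) and without dsl1 replicate 2 (-0.039), and was 0.11 without WT replicate 3. These counts over members were made after the values were seen.

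Correlations between arrays over all clusters were 0.9796 to 0.9806 within dsl1, 0.9704 to 0.9795 within WT and 0.9621 to 0.978 across genotypes. The WT pairs that were no closer than pairs of different genotype held WT replicate 2, at 0.9704 with replicate 1 and 0.9708 with replicate 3. WT replicates 1 and 3 correlated at 0.9795. The lowest value across genotypes was that of dsl1 replicate 2 with WT replicate 2. Of 10 matched apex markers 7 were measured, among them the homeobox genes OSH1, at 4.63 to 5.35 in dsl1 and 4.67 to 5.13 in WT, and OSH15. Of the 7, which include the member CYP78A11 under its name PLA1, 5 were above and 2 below 0. OSH15 was at 5.60, 5.86 and 5.62 in dsl1 and at 5.40, 5.43 and 5.17 in WT, without overlap, a difference of 0.35. It and OSH71, at 0.57, had an unadjusted p under 0.05, and none of the 7 passed after adjustment. Over all genes, 15.0% were under that p and 24.4% were without overlap. The 2 markers below 0 were WOX4, at -0.28, and FON1, at -0.080. A summed level here is the log2 of the added unlogged levels of a list, so its brightest genes weigh most. For the 7 markers it was 9.11 to 9.81 in dsl1 and 8.92 to 9.36 in WT. The marker LOG was by far the brightest of the 7. Their summed level therefore mostly follows LOG and says little about the other markers. Summed levels of other lists were 9.21 to 9.40 in dsl1 and 9.26 to 9.54 in WT for 6 leaf primordium genes, 11.9 to 12.4 in dsl1 and 12.3 to 12.5 in WT for 5 genes of greening leaf, and 7.40 to 7.73 in dsl1 and 7.56 to 7.77 in WT for 3 root genes. Above and below 0 there were 1 and 5 leaf primordium genes, 1 and 4 of greening leaf, and 0 and 3 root genes. In each of these lists 0 genes had an unadjusted p under 0.05, beside 15.0% of all genes. Of 6 matched wound and pathogen genes 4 were measured, the members CYP74A1 and CYP74A2, the chitinase Cht1 and the jasmonate-induced factor JAMYB. Their summed level was 8.23 to 9.34 in dsl1 and 6.96 to 7.43 in WT, without overlap. Cht1 was at 7.51, 8.25 and 6.90 in dsl1 and at 4.5, 4.82 and 5.17 in WT, and JAMYB at 6.26, 6.78 and 6.41 in dsl1 and at 3.56, 4.64 and 4.23 in WT. Of the 4 genes 3 were above and 1, CYP74A1, below 0. Cht1 differed by 2.72 (95% interval 1.90 to 3.55, limma unadjusted p = 0.000108). JAMYB differed by 2.34 (95% interval 1.66 to 3.03, limma unadjusted p = 8.8e-05). These 2 were under 0.05, beside 15.0% of all genes. None of the 4 genes passed after adjustment. Their part in the values of CPS4, KSL7 and CYP74A2 was not tested.

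Genes that supply or complete the diterpenoid route showed no call. Of the isoprenoid precursor list 4 of 6 matched genes were measured, 3 above and 1 below 0, with a median of 0.16. Of the 4, 0 had an unadjusted p under 0.05, beside 15.0% of all genes. HMGR3, of the reductase that limits the mevalonate pathway, was at 8.39, 8.03 and 7.39 in dsl1 and at 7.04, 7.47 and 7.53 in WT. Its dsl1 replicates 1 and 2 stood above WT and replicate 3 within it, at a difference of 0.59 (limma adjusted p = 0.464). ISPD, ISPG and DXR, of the plastid pathway that provides the diterpenoid precursor, differed by -0.30, 0.14 and 0.19. ISPG was at 8.67, 8.56 and 8.58 in dsl1 and at 8.42, 8.47 and 8.52 in WT, without overlap, beside 24.4% of all genes. Of the further phytoalexin genes, MAS and WRKY76, a WRKY factor known to repress phytoalexin genes, were measured. WRKY76 was at 5.42, 6.15 and 5.53 in dsl1 and at 5.48, 5.71 and 7.18 in WT, with WT replicate 3 far above the other 5 arrays. No P450 reductase or cytochrome b5 partner was matched by name.

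The P450 genes that the name rule leaves out are set beside the members here. They are genes of brassinosteroid and gibberellin synthesis or turnover and the abscisic acid hydroxylase CYP707A6. Of the 11 measured, 3 had an unadjusted p under 0.05, all above 0 (CYP707A6 at 0.76, CYP734A2 at 0.41 and CYP724B1 at 0.31). That is 27.3% of them, beside 15.0% of all genes. Their median difference was 0.067, beside 0.065 for the 20 members, and 0 passed after adjustment. The difference between the sets was not tested.

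The 14 named genes without a cluster of their own were not analysed here. They include the gibberellin enzymes KS1, CYP701A6 and CYP88A5, the momilactone enzymes KSL4 and CYP99A2, the phytoalexin genes KSL2, KSL5, CYP71Z7 and CYP76M8, the tryptamine hydroxylase CYP71P1, the abscisic acid hydroxylases CYP707A5 and CYP707A7, the allene oxide synthase CYP74A3, and CYP701A19. Among the 20 members, the gibberellin branch is therefore seen through CPS1 alone. Other measured genes of gibberellin synthesis or turnover, of the CYP714 family, are among the P450s left out by the rule.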

How the data were processed

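Each RNA sample was labelled with biotin and hybridised to 1 single-colour whole-transcript array. The values are log2 expression as deposited by the authors. The submitters' processing notes name Affymetrix Expression Console 1.3. Its settings for background, normalisation and summarisation, and the genome build, were not given in the sources used here. Array medians lay between 5.30 and 5.40 and no scaling was added. Precision is limited by how many arrays there are. Gene identifiers of the platform's annotation gave the names: 15829 clusters had 1 gene, all found in the rice reference (assembly ASM3414082v1), 440 had several and were not used, and the others are unnamed here. The reference served for names and gene order only.

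Genotypes were compared by limma 3.58.1 in R 4.3.3 (lmFit, eBayes, 2-sided, no block) over 54922 clusters with Benjamini-Hochberg adjustment. A cluster was called at an adjusted p under 0.05. Differences are dsl1 minus WT. The fit was tested on simulated data. The members and lists were chosen with earlier results of these data known. By the naming rule, values are given for every synthase, every P450 of the diterpenoid subfamilies, other members at an unadjusted p under 0.05, the 5 brightest and the brightest of each other P450 list. CYP74A4 was outside it and is given for completeness. No sequences were used.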

Additional observations from a re-analysis of the deposited data

How the results depend on the processing

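No member passed the adjusted threshold under any alternative, and the lowest adjusted p reached was 0.155. Of 287 alternative values of single members, 274 kept their direction and 13 changed sign, all with 1 array left out. Alternatives that altered only the variance estimate, the block, the clusters fitted or the cluster per gene could not move a difference. Directions were kept by construction there, so the 274 are no measure of stability. CPS4 kept an unadjusted p under 0.05 in all 15 of its alternatives. The count of members at that p on the higher side, 2 with all arrays, was 1 without the dimmest 33.3% of clusters, with a variance trend, with array weights, with the replicate block and with a fold minimum of 1, and ran from 1 to 4 with 1 array left out. It was 4 without dsl1 replicate 3 (CPS4, KSL7, CYP701A8, CYP74A2). Over all clusters, the share at that p in either direction was 9.6% without dsl1 replicate 3, beside 11.8% with all arrays. That share ran from 8.5% to 11.8% with 1 array left out. It was 14.5% without the dimmest clusters, 12.3% with a variance trend, 12.1% with array weights and 9.5% with the replicate block. On the lower side the count, 1 with all arrays, was 0 without the dimmest clusters and with the fold minimum, and 0 to 2 with 1 array left out, 2 without WT replicate 2 (CYP703A3, CYP74A4), while the 1 without WT replicate 1 was CYP701A9. The dim filter leaves 7 members, and their median difference is 0.30, beside -0.0064 over all clusters that it keeps. It uses the mean over all 6 arrays, so a high dsl1 level helps a member to pass. CPS4, at means of 4.15 in WT and 5.26 in dsl1, is such a member. No conclusion is drawn from that median. With 1 array left out, the members whose sign changed ran from -0.25 to 0.089 (CYP76M6), -0.081 to 0.48 (CYP99A3), -0.27 to 0.0030 (CYP74A1), -0.085 to 0.18 (KSL10), -0.37 to 0.20 (KSL3), -0.12 to 0.27 (KSL6), -0.037 to 0.090 (CYP78A11) and -0.18 to 0.40 (CYP87A3). Each member had 1 cluster, so the choice of cluster changed nothing.

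Replicate numbers showed no sign of pairing: deviations of same-numbered arrays correlated at -0.064, -0.13 and -0.052, and none correlated best with its own number. Deviations from a mean of 3 arrays are tied to one another. These correlations therefore cannot settle whether same-numbered arrays shared a batch. Calls over all clusters, 14 with all arrays, were 1 with the replicate block (1 higher, 0 lower), and 59 higher and 16 lower when only the 15829 clusters with 1 gene were fitted. They were 0 without dsl1 replicate 1 or WT replicate 3, and at most 4 higher and 4 lower without any other array. With the block, the members' median stayed at 0.065 by construction.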
